A study of Mus musculus with 12 samples.

Results

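Transcripts of 35 skeletal muscle genes were measured in 2 mouse fat depots, subcutaneous white adipose tissue (scWAT) and brown adipose tissue (BAT), on 12 one-colour Agilent microarrays. The members were a fixed list of contractile, calcium-handling, energy and scaffold genes of striated muscle, found on the array by matching the RefSeq accession of each probe to a gene symbol. The 35 genes were all represented, by 44 of 55681 probes, among 20660 named genes. Each gene was read from its brightest probe, taken as the probe with the highest mean over the 12 arrays. By their usual fibre type 14 were set apart as fast-fibre genes, 7 as slow-fibre genes and 14 as shared by both.

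All mice were male C57Bl6/J animals aged 12 weeks on a high-fat diet with 60% of calories from fat. The labels give 4 weeks of the diet in one field and feeding from weaning in another. Wild-type (WT) mice were littermates of Lr11 -/- mice, which lack the sorting receptor LR11, encoded by Sorl1, with no tissue-specific driver named. Each genotype was measured in both depots, which made 4 groups of 3 arrays. No label says which arrays came from 1 mouse, or that the arrays of a group came from separate mice, so p-values measure only the spread between these arrays, which may be technical. Replicate numbers follow the accession order and are only names.

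Skeletal muscle fibres are packed with sarcomeres, in which myosin thick filaments slide along actin thin filaments when calcium binds to troponin. Fast-twitch and slow-twitch fibres build the same apparatus from different genes, so that myosin heavy chains, myosin light chains and the troponins each come in a fast and a slow isoform. Neither white nor brown adipocytes form sarcomeres, although brown adipocytes arise from an embryonic lineage shared with muscle. In a ground piece of tissue fewer cells of a type and less RNA per cell cannot be told apart.

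Values below are log2 signals after subtraction of each array's 75th percentile, so 0 is the level of a moderately bright probe of that array and a difference of 1 is a 2-fold change. Such levels depend on the probe and are compared only between arrays. The targeted gene followed the labels. Sorl1 was 0.11 to 1.21 on the 6 WT arrays and -3.93 to -2.45 on the 6 Lr11 -/- arrays. Agilent's software called 32377 to 37002 spots of an array well above background and 0 saturated. The 7 adipocyte markers (Adipoq, Plin1, Fabp4, Lep, Cidec, Lipe, Pnpla2) were above background on all 12 arrays. Ucp1, the uncoupling protein that defines brown fat, was 9.45 to 10.07 on the 6 BAT arrays. In scWAT it read -4.63, -4.52 and 2.92 on the WT scWAT arrays and 4.39, 9.75 and 10.05 on the Lr11 -/- scWAT arrays, so 2 arrays labelled Lr11 -/- scWAT carried Ucp1 at the level of the BAT arrays. The arrays came in 2 series by their titles, with replicate 1 of each group in the first series and replicates 2 and 3 in the second.

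Promoter windows of the genes were read from RefSeq (GRCm38.p6), which held 28 of the 35 members in 35 windows of 300 bases, from 250 before to 50 after the annotated start. Actn3, Tnnt3, Tnni2, Myoz1, Myot, Tcap and Neb had no entry. The 250 bases before the start are shown for 6 members whose array values are given below. No array result rests on these sequences. Acta1 and Ckm encode the actin and the creatine kinase shared by all fibres, Myh4 and Myh7 the fastest and the slow myosin heavy chain, and Tnnc2 and Tnnc1 the fast and the slow troponin C. They lie at chr8:123894776-123895025, minus strand (Acta1), chr7:19410844-19411093, plus strand (Ckm), chr11:67237562-67237811, plus strand (Myh4), chr14:54994550-54994799, minus strand (Myh7), chr2:164779735-164779984, minus strand (Tnnc2) and chr14:31208062-31208311, plus strand (Tnnc1), and each is written 5′ to 3′ on the strand of its gene. Capitals mark matches to CAGCTG, to the MEF2 motif, to TATAAA or to the CArG box.
Acta1: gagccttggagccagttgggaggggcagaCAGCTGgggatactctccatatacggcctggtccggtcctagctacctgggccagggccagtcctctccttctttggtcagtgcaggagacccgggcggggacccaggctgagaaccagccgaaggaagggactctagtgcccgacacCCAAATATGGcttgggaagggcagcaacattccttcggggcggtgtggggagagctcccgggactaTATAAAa
Ckm: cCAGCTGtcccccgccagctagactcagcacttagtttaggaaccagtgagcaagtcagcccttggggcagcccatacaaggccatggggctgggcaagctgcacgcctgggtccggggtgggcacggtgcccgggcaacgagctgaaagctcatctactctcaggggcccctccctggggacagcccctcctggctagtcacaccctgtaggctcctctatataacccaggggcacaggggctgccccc
Myh4: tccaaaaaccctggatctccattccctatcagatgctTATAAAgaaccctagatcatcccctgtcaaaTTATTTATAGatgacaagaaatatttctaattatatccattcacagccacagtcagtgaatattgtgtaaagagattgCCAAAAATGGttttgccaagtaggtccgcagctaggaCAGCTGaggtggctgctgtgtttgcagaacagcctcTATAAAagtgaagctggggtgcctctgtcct
Myh7: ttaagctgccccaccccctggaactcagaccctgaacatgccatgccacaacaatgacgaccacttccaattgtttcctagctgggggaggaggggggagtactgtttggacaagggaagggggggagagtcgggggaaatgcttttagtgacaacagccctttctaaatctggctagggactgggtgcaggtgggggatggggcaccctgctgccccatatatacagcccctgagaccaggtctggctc
Tnnc2: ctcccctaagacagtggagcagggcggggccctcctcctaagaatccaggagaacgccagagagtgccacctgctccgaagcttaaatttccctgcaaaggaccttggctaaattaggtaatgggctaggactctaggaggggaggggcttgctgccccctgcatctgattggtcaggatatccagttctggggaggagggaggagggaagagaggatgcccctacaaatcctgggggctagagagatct
Tnnc1: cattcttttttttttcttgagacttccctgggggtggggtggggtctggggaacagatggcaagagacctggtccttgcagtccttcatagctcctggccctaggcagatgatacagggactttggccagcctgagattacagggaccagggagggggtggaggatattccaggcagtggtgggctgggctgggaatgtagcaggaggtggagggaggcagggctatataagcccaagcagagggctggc

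CAGCTG, a sequence that myogenic helix-loop-helix factors such as MyoD can bind, was searched on both strands and is 1 form of the looser CANNTG. It lay in 17 of the 35 member windows (48.6%), against 16.3% of all 32817 windows of the same length. CANNTG itself was in 29 member windows and in 72.3% of all windows. The MEF2 motif was in 5 member windows (3.19% of all windows), the CArG box of serum response factor also in 5 (1.63%), and TATAAA in 7 (13.6%). In 2 member windows matches of MEF2, the CArG box and TATAAA overlapped each other. Among the 6 shown, Myh4 held all of the 4 marked motifs, while Myh7, Tnnc2 and Tnnc1 held none of them in these 250 bases. These are matches of letters in a short window and no measurement of binding.

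The muscle genes were bright on 5 single arrays and dim on the other 7, and those 5 arrays belonged to all 4 groups. All 35 genes were well above background on WT scWAT replicate 3, Lr11 -/- scWAT replicate 1, WT BAT replicate 1, WT BAT replicate 3 and Lr11 -/- BAT replicate 1. On the other 7 arrays 19 to 26 of the 35 were above background. Bright and dim arrays were spread unevenly over the 2 array series. In the first series only WT scWAT replicate 1 was dim, and in the second only WT scWAT replicate 3 and WT BAT replicate 3 were bright. Whether brightness went with the series was not tested. For scWAT the median of the 35 log2 signals was -2.68, -3.03 and 7.37 on the WT arrays and 6.48, -3.62 and -3.74 on those of Lr11 -/- mice. For BAT the WT arrays had medians of 4.64, -4.01 and 4.24 and the Lr11 -/- arrays of 3.75, -3.47 and -3.76. Thus 1 array stood high in each of 3 groups and 2 in WT BAT, and the scWAT arrays among them were brighter than the BAT arrays. As a share of the intensity summed over all probes of an array, the 35 genes took 3.5% on WT scWAT replicate 3 and 2.73% on Lr11 -/- scWAT replicate 1. The share was 0.854% on WT BAT replicate 1, 0.68% on WT BAT replicate 3 and 0.443% on Lr11 -/- BAT replicate 1. It was between 0.00356% and 0.0128% on each of the other 7 arrays. The lowest signal among probes well above background lay between -5.18 and -4.41 on the 12 arrays, so values near or below that range were close to background.

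The same array was the highest of its group for all genes in 3 groups. WT scWAT replicate 3, Lr11 -/- scWAT replicate 1 and Lr11 -/- BAT replicate 1 were each the highest of their group for 35 of 35 members. Among the 32121 tested probes these arrays were the highest of their group for 29%, 33.7% and 32.8%. In WT BAT, replicate 2 was the lowest for 35 of 35 members and for 25.9% of tested probes. The gap from the highest to the middle array had a median over members of 9.63 in WT scWAT, 9.92 in Lr11 -/- scWAT and 6.59 in Lr11 -/- BAT, against gaps of 1.74, 0.24 and 0.42 from the middle to the lowest. The standard deviation (SD) within groups, pooled over the 4 groups, had a median of 5.18 over members (2.67 to 8.23), against a median of 0.43 over the tested probes. It exceeded 2.09, the 99th percentile of tested probes, for 35 of 35 members.

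**Figure D1:**
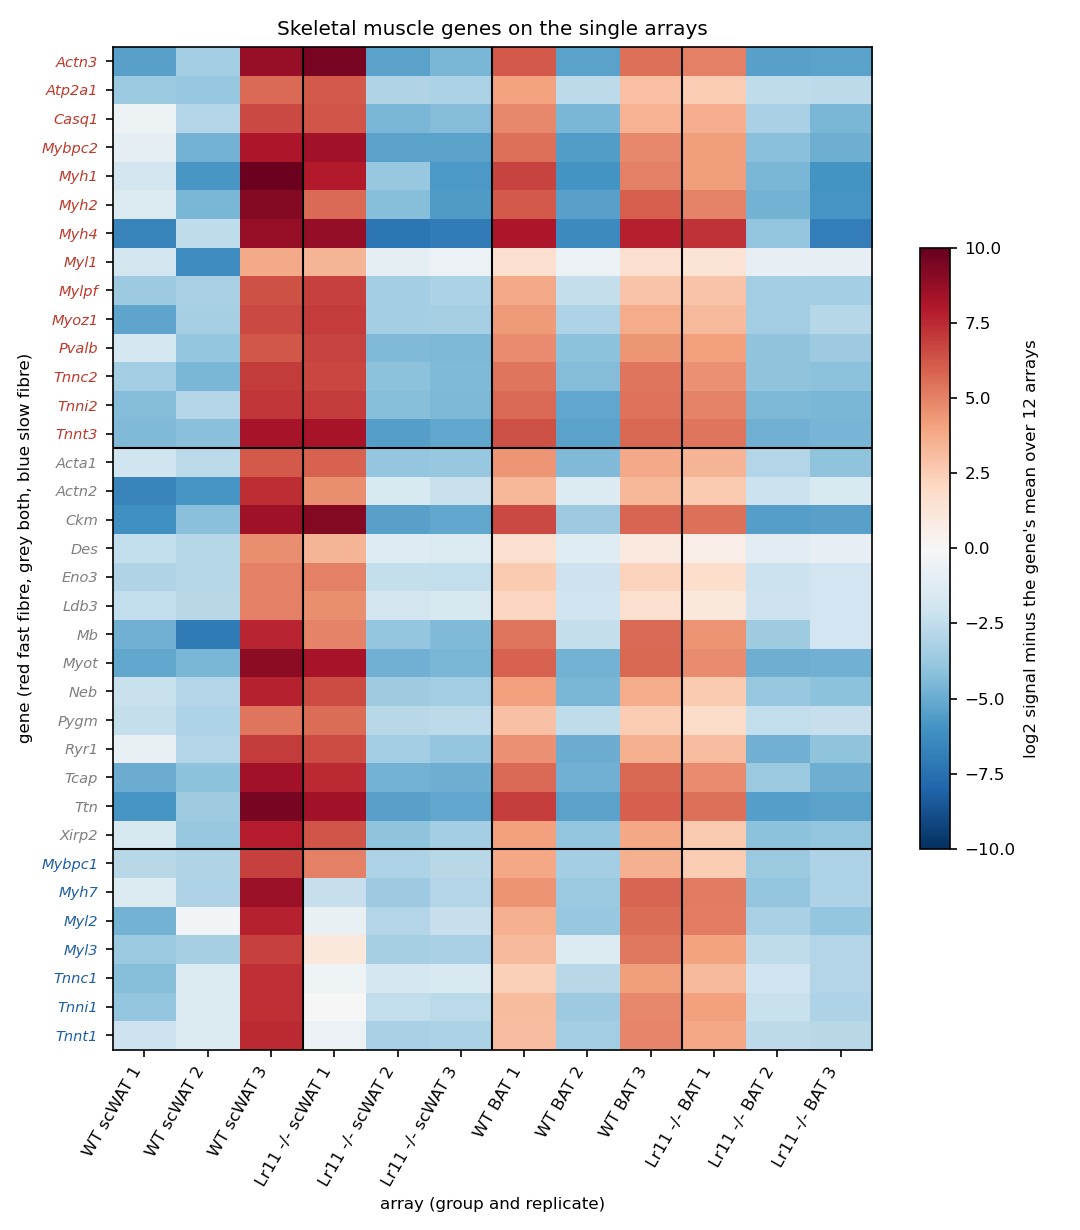
Log2 signal of the 35 skeletal muscle genes (rows, grouped as fast, shared and slow fibre genes) on the 12 arrays (columns, by group and replicate), as the difference from each gene's mean over the 12 arrays. The 5 arrays on which all 35 genes were above background stand out in red for most genes. The slow-fibre genes other than Mybpc1 were near or below their means on Lr11 -/- scWAT replicate 1, Myl3 being the highest of them. Some genes, such as Des and Myl1, were only slightly above their means on the bright BAT arrays.

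Among the thick filament genes, the myosin heavy chains separated the 5 bright arrays by fibre type. Myh4, the heavy chain of the fastest (IIB) fibres, read -6.13, -2.08 and 9.18 on the WT scWAT arrays and 9.27, -6.76 and -6.58 on the Lr11 -/- scWAT arrays. In BAT it read 8.53, -5.88 and 8.22 on the WT BAT arrays and 7.67, -3.53 and -6.49 on the Lr11 -/- BAT arrays. It was thus about as bright on Lr11 -/- scWAT replicate 1 as on WT scWAT replicate 3, with a difference of 0.09. Myh1, the IIX heavy chain, read -2.68, -6.63 and 8.99 on the WT scWAT arrays and 7.11, -4.61 and -6.58 on the Lr11 -/- scWAT arrays, and 5.89, -6.83 and 4.24 on the WT BAT arrays and 3.34, -5.40 and -6.80 on the Lr11 -/- BAT arrays. Myh2, the IIA heavy chain, read -2.18, -5.32 and 8.42 on the WT scWAT arrays and 4.93, -5.00 and -6.40 on the Lr11 -/- scWAT arrays, and 5.33, -6.20 and 5.25 on the WT BAT arrays and 4.18, -5.47 and -6.69 on the Lr11 -/- BAT arrays. The same pair of scWAT arrays differed by -1.88 for Myh1 and by -3.50 for Myh2. Myh7, the slow (type I) heavy chain also used in heart, read -1.88, -3.61 and 8.08 on the WT scWAT arrays and -2.82, -4.20 and -3.49 on the Lr11 -/- scWAT arrays. Its BAT values were 3.93, -4.29 and 5.26 on the WT BAT arrays and 4.61, -4.51 and -3.66 on the Lr11 -/- BAT arrays. For Myh7 the scWAT pair differed by -10.90, and Lr11 -/- scWAT replicate 1 was 0.67 above the next array of its group. Fast myosin heavy chains are near-identical neighbouring genes, so signal may be shared between the probes of Myh1, Myh2, Myh4 and Myh8.

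The myosin light chains and binding proteins showed the same split. Mylpf, the fast regulatory light chain, read -6.98, -6.53 and 3.07 on the WT scWAT arrays and 3.54, -6.74 and -6.52 on the Lr11 -/- scWAT arrays, and 0.47, -5.67 and -0.47 on the WT BAT arrays and -0.45, -6.82 and -6.70 on the Lr11 -/- BAT arrays. Myl2, its slow counterpart, read -4.91, -0.51 and 7.46 on the WT scWAT arrays and -1.0, -3.15 and -2.55 on the Lr11 -/- scWAT arrays, and 3.37, -4.01 and 5.36 on the WT BAT arrays and 4.87, -3.47 and -4.05 on the Lr11 -/- BAT arrays. Myl3, the slow essential light chain, read -3.26, -2.87 and 7.35 on the WT scWAT arrays and 1.53, -2.85 and -2.73 on the Lr11 -/- scWAT arrays, and 3.72, -0.85 and 5.72 on the WT BAT arrays and 4.54, -2.06 and -2.47 on the Lr11 -/- BAT arrays. Both slow light chains were lower on Lr11 -/- scWAT replicate 1 than on each bright BAT array, whereas Mylpf was higher there. Mybpc1, the slow form of myosin-binding protein C, ran from -3.30 on Lr11 -/- BAT replicate 2 to 7.26 on WT scWAT replicate 3 and read 5.44 on Lr11 -/- scWAT replicate 1. It was the slow-list gene that went with the fast genes in these comparisons. Mybpc2, the fast form, read 6.92 and 7.22 on the same pair of scWAT arrays.

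Myl1, the fast essential light chain, separated the arrays that were dim for the other members. It read 3.85, -0.53 and 9.52 on the WT scWAT arrays and 9.12, 4.83 and 5.16 on the Lr11 -/- scWAT arrays, and 7.35, 5.12 and 7.30 on the WT BAT arrays and 7.06, 4.89 and 4.92 on the Lr11 -/- BAT arrays. It was above background on all 12 arrays, and the dim BAT arrays and Lr11 -/- scWAT replicates 2 and 3 lay between 4.83 and 5.16. WT scWAT replicates 1 and 2 lay below that range. A second Myl1 probe ranged from -5.70 on WT scWAT replicate 2 to 6.25 on WT scWAT replicate 3. The correlation of Myl1 with the mean deviation of the other members from the group means was also the lowest of the 35 (Pearson r = 0.86 over 12 arrays), against a median of 0.98. These correlations describe the 12 arrays, which share their group structure and single bright arrays, and carry no test. In all, 16 of the 35 members were above background on all 12 arrays.

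Thin filament genes repeated the division between the isoforms. Acta1, skeletal alpha-actin, read 1.46, 0.81 and 9.62 on the WT scWAT arrays and 9.40, -0.41 and -0.33 on the Lr11 -/- scWAT arrays. In BAT it read 7.91, -0.91 and 7.29 on the WT BAT arrays and 6.85, 0.58 and -0.55 on the Lr11 -/- BAT arrays. Tnnt3, fast troponin T, read -3.52, -3.27 and 9.14 on the WT scWAT arrays and 9.16, -4.59 and -4.29 on the Lr11 -/- scWAT arrays, and 7.27, -4.49 and 6.59 on the WT BAT arrays and 6.27, -3.90 and -3.76 on the Lr11 -/- BAT arrays. Tnnt1, slow troponin T, read -0.99, -0.27 and 8.58 on the WT scWAT arrays and 0.49, -2.18 and -2.11 on the Lr11 -/- scWAT arrays, and 4.19, -2.42 and 5.98 on the WT BAT arrays and 4.97, -1.51 and -1.66 on the Lr11 -/- BAT arrays. Fast troponin T was level between WT scWAT replicate 3 and Lr11 -/- scWAT replicate 1 (difference 0.01), and slow troponin T differed by -8.09. Tnni2, fast troponin I, the inhibitory subunit, read -1.54, -0.10 and 9.93 on the WT scWAT arrays and 9.81, -1.41 and -1.71 on the Lr11 -/- scWAT arrays, and 8.51, -2.38 and 8.28 on the WT BAT arrays and 7.79, -1.69 and -1.75 on the Lr11 -/- BAT arrays. Tnni1, slow troponin I, read -5.65, -3.03 and 5.65 on the WT scWAT arrays and -1.63, -4.13 and -4.42 on the Lr11 -/- scWAT arrays, and 1.45, -5.31 and 3.12 on the WT BAT arrays and 2.43, -3.92 and -4.80 on the Lr11 -/- BAT arrays. The scWAT pair differed by -0.12 for the fast and by -7.28 for the slow inhibitory subunit. Tnnc2, fast troponin C, the calcium sensor, read -0.32, -1.42 and 10.08 on the WT scWAT arrays and 9.77, -0.96 and -1.28 on the Lr11 -/- scWAT arrays, and 8.51, -1.24 and 8.49 on the WT BAT arrays and 7.68, -0.87 and -0.98 on the Lr11 -/- BAT arrays. Tnnc1, the slow and cardiac troponin C, read -6.86, -4.06 and 4.72 on the WT scWAT arrays and -3.02, -4.28 and -4.07 on the Lr11 -/- scWAT arrays, and -0.22, -5.34 and 1.58 on the WT BAT arrays and 0.68, -4.56 and -5.50 on the Lr11 -/- BAT arrays. Here the differences were -0.31 for Tnnc2 and -7.74 for Tnnc1.

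The calcium-handling, energy and scaffold genes tracked the same 5 arrays. Atp2a1, the fast-fibre calcium pump SERCA1, read -2.58, -2.67 and 6.76 on the WT scWAT arrays and 7.21, -1.92 and -2.06 on the Lr11 -/- scWAT arrays, and 5.14, -1.49 and 4.11 on the WT BAT arrays and 3.65, -1.40 and -1.49 on the Lr11 -/- BAT arrays. Pvalb, the calcium buffer parvalbumin of fast fibres, read 0.85, -1.32 and 8.77 on the WT scWAT arrays and 9.31, -1.81 and -1.90 on the Lr11 -/- scWAT arrays, and 7.33, -1.53 and 7.01 on the WT BAT arrays and 6.66, -1.45 and -1.02 on the Lr11 -/- BAT arrays. Both were slightly higher on Lr11 -/- scWAT replicate 1 than on WT scWAT replicate 3. Ckm, muscle creatine kinase, read -7.11, -5.21 and 7.47 on the WT scWAT arrays and 8.14, -6.48 and -6.24 on the Lr11 -/- scWAT arrays, and 5.59, -4.69 and 4.83 on the WT BAT arrays and 4.53, -6.55 and -6.46 on the Lr11 -/- BAT arrays. Eno3, muscle enolase, read 0.62, 0.79 and 8.61 on the WT scWAT arrays and 8.68, 1.23 and 1.16 on the Lr11 -/- scWAT arrays, and 6.22, 1.54 and 5.92 on the WT BAT arrays and 5.38, 1.44 and 1.69 on the Lr11 -/- BAT arrays. Mb, the oxygen store myoglobin, read -4.47, -6.75 and 7.90 on the WT scWAT arrays and 5.24, -3.59 and -4.12 on the Lr11 -/- scWAT arrays, and 5.69, -2.08 and 5.93 on the WT BAT arrays and 4.78, -3.28 and -1.61 on the Lr11 -/- BAT arrays. From WT scWAT replicate 3 to Lr11 -/- scWAT replicate 1 Mb differed by -2.66, Ckm by 0.67 and Eno3 by 0.07. Des, the intermediate filament desmin, which smooth muscle also makes, read -1.08, -1.45 and 6.04 on the WT scWAT arrays and 4.83, 0.08 and -0.02 on the Lr11 -/- scWAT arrays, and 3.00, 0.20 and 2.35 on the WT BAT arrays and 2.05, 0.28 and 0.58 on the Lr11 -/- BAT arrays. Ttn, the giant sarcomeric spring titin, read -7.40, -5.02 and 8.02 on the WT scWAT arrays and 6.87, -6.91 and -6.66 on the Lr11 -/- scWAT arrays, and 5.38, -6.87 and 4.45 on the WT BAT arrays and 4.02, -6.97 and -6.87 on the Lr11 -/- BAT arrays. The 4 Ttn probes on the array had ranges over the 12 arrays of 9.10 to 15.42, with the same 5 arrays high for each.

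The 5 bright arrays differed among themselves by fibre type. From WT scWAT replicate 3 to Lr11 -/- scWAT replicate 1, the 14 fast genes had a median difference of 0.05 (-3.50 to 0.78), with 8 higher and 6 lower. The 7 slow genes had a median of -7.74 (-10.90 to -1.82) and were lower in 7 of 7. The lowest, Myh7, was 1912-fold higher on the WT scWAT array. Each bright BAT array was above Lr11 -/- scWAT replicate 1 for 6 of 7 slow genes, Mybpc1 being the exception. In contrast, Lr11 -/- scWAT replicate 1 was higher than WT BAT replicates 1 and 3 for 13 of 14 fast genes, Myh2 being the exception, and higher than Lr11 -/- BAT replicate 1 for 14 of 14. These are differences between single arrays and have no replicate check. Lr11 -/- scWAT replicate 1 and WT scWAT replicate 3 were also of different array series and slides, which cannot be told apart from their other differences.

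Within WT BAT the same contrast appeared on a smaller scale. WT BAT replicates 1 and 3 were also of different array series and slides, and Lr11 -/- BAT replicate 1 shared both with WT BAT replicate 1. WT BAT replicate 1 exceeded replicate 3 for 14 of 14 fast genes, with a median of 0.59 (0.02 to 1.65). It was below replicate 3 for 6 of 7 slow genes, with a median of -1.79 (-2.00 to 0.30), and Mybpc1 was again the exception. Lr11 -/- BAT replicate 1 was below WT BAT replicate 1 for 14 of 14 fast genes (median -0.998, -2.55 to -0.28) and above it for 6 of 7 slow genes (median 0.82, -1.26 to 1.51). Relative to WT BAT replicate 3, Lr11 -/- BAT replicate 1 was lower in both classes, with medians of -0.45 for fast and -0.90 for slow genes. Relative to WT scWAT replicate 3, WT BAT replicate 1 had medians of -2.02 for fast and -4.15 for slow genes. The signs of the fast and slow medians in the pairs named here held under 4 other ways of scaling or background correction. From WT scWAT replicate 3 to WT BAT replicate 3 the medians were alike, at -2.80 for fast and -2.59 for slow genes.

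**Figure D2:**
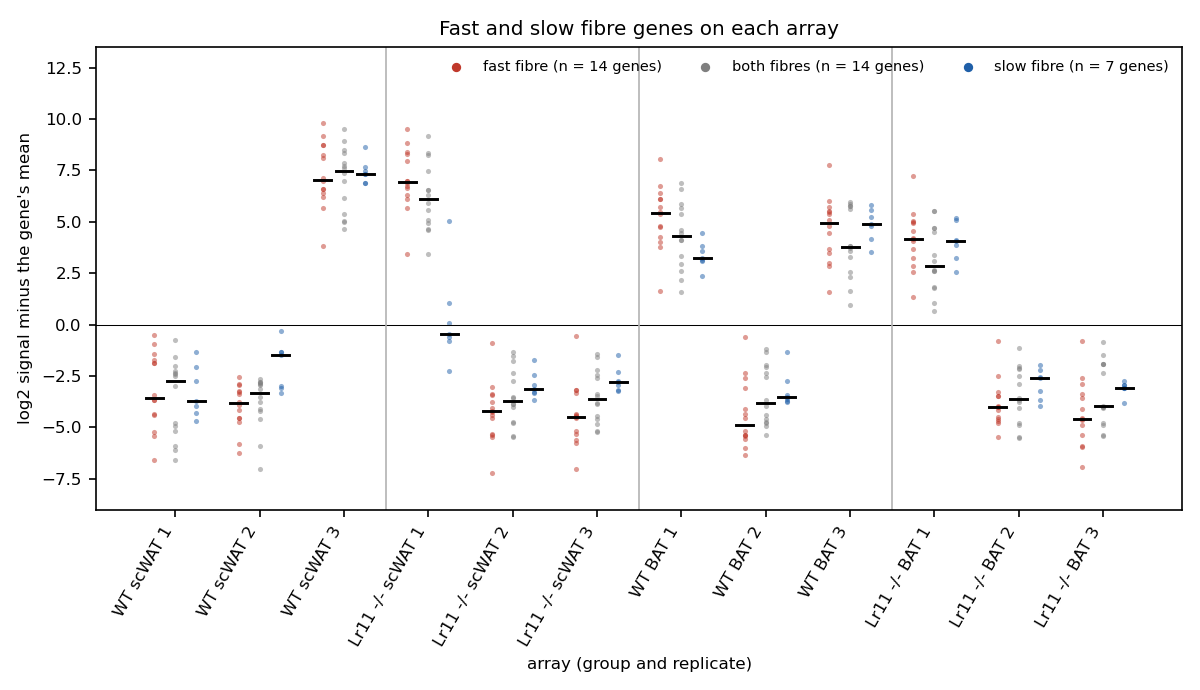
Log2 signal minus each gene's mean over 12 arrays, for the 14 fast-fibre, 14 shared and 7 slow-fibre genes on every array (points are genes, black bars are medians over genes). On Lr11 -/- scWAT replicate 1 the median of the fast genes was 6.91 and that of the slow genes -0.44, whereas on WT scWAT replicate 3 they were 7.04 and 7.34.

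**Figure D3:**
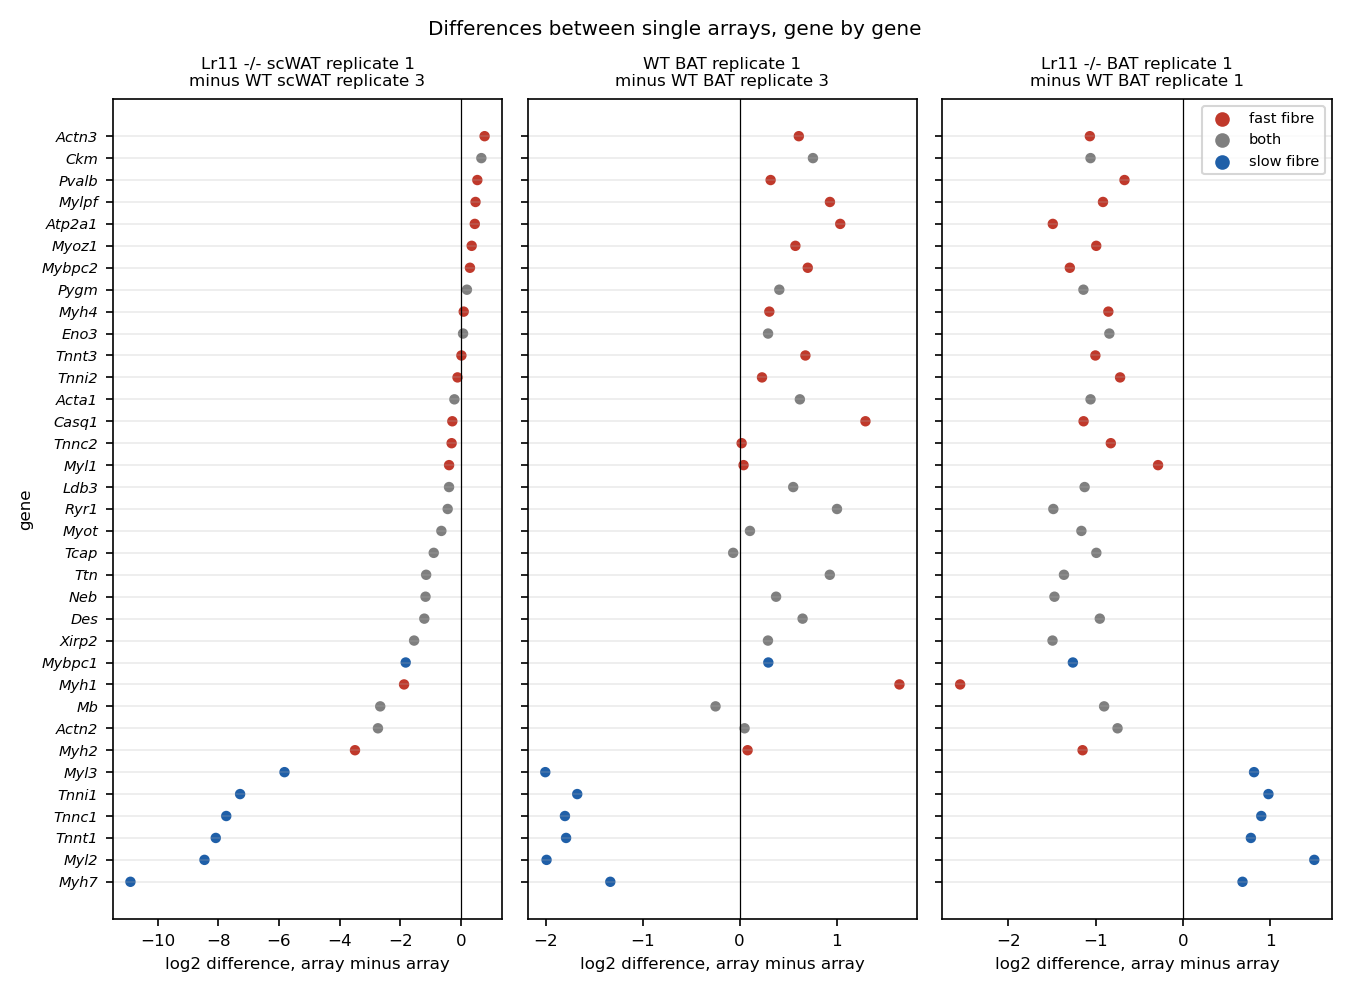
Log2 difference between single arrays for each of the 35 genes (1 point a gene, red fast, grey shared and blue slow fibre), in the same gene order in all panels, with a different horizontal range in each panel. The 6 slow genes other than Mybpc1 lie apart from the rest in all 3 pairs, lower in Lr11 -/- scWAT replicate 1 and in WT BAT replicate 1 and higher in Lr11 -/- BAT replicate 1.

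Other sarcomere and triad genes, a list of 39 of which 38 were on the array, were high on the same arrays. All 38 were above background on WT scWAT replicate 3, Lr11 -/- scWAT replicate 1 and WT BAT replicates 1 and 3, 37 on Lr11 -/- BAT replicate 1, and 24 to 28 on the others. The largest differences from WT scWAT replicate 3 to Lr11 -/- scWAT replicate 1 were -6.43 for Csrp3 (muscle LIM protein), -6.06 for Myom3 (an M-band protein), -5.95 for Myoz2 (the calsarcin of slow and cardiac muscle) and -4.61 for Ankrd2 (an ankyrin-repeat protein of slow fibres). Of the 37 genes above background on all 5 arrays, 30 were lower on Lr11 -/- scWAT replicate 1, with a median of -0.65. For Myoz2 the difference from WT BAT replicate 3 to replicate 1 was -1.52. Sln, the calcium pump inhibitor sarcolipin, read -4.04, -6.67 and 6.86 on the WT scWAT arrays and -0.88, -6.90 and -6.65 on the Lr11 -/- scWAT arrays, and -1.02, -6.86 and 1.5 on the WT BAT arrays and 0.90, -6.96 and -6.86 on the Lr11 -/- BAT arrays. Its difference over the same pair of scWAT arrays was -7.74.

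Several developmental and regulatory muscle genes were highest on 1 or both of the bright scWAT arrays. Myh3, the embryonic myosin heavy chain, read -7.28, -6.32 and 3.25 on the WT scWAT arrays and was at most -3.67 on the other 9 arrays. It was thus high on WT scWAT replicate 3 alone, and on the other bright scWAT array, Lr11 -/- scWAT replicate 1, it was -6.83, the lowest of its group. Musk, the receptor kinase of the neuromuscular junction, read 1.84 on WT scWAT replicate 3 and at most -2.92 elsewhere. Myf6, the myogenic factor of mature fibres, read 4.03 and 3.35 on the bright scWAT arrays and -0.74 to 0.01 on the bright BAT arrays. Trim63, an ubiquitin ligase of muscle wasting, read 6.26 and 6.40 on the former and -0.12 to 1.80 on the latter. Mstn, the growth inhibitor myostatin, read 3.23 and 1.61 on the bright scWAT arrays and -3.65 to -3.48 on the bright BAT arrays. Myl7, the atrial light chain, was between -7.09 and -6.07 on all 12 arrays. Its list of 12 cardiac genes, which also holds Sln, did not stay flat. The centred medians of that list were 0.06 to 0.98 on the bright arrays and -0.67 to 0.04 on the others. The 9 smooth muscle genes had centred medians between -0.56 and 0.99.

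Outside the members, the tested named genes most like them were chosen by the Pearson correlation of their deviations from the group means with the mean deviation of the members over the 12 arrays. Among the first 15 were Cacna1s, Ppp1r3a, Capn3, Hrc, Usp13, Pgam2, Fzd9, Dupd1, Svil, Scn4b, Stxbp4, Mylk2, Nexn and Cacna2d1, with r from 0.98 to 0.997. Cacna1s, the voltage sensor of the skeletal muscle calcium channel, was first. It read -2.79, -1.90 and 7.57 on the WT scWAT arrays, 6.85, -1.45 and -1.66 on the Lr11 -/- scWAT arrays, 4.79, -3.21 and 4.25 on the WT BAT arrays and 3.57, -3.34 and -2.61 on the Lr11 -/- BAT arrays. Its 5 highest arrays were those on which all 35 members were above background.

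The first group comparison asks whether muscle transcripts differed between genotypes in scWAT. A test needed signal well above background on every array of 1 or more groups, which 23 of the 35 members had. The 12 others (Actn3, Ckm, Myh1, Myh2, Myh4, Mylpf, Tnni1, Casq1, Myot, Ttn, Mybpc2 and Xirp2) have differences of means without a test. By limma on all 12 arrays, 0 of the 23 passed an adjusted p of 0.05 and 0 had an unadjusted p below 0.05, where 5.27% and 27.6% of all tested probes did. The arrays of the 2 genotypes did not separate for any of the 35 members, where 20.4% of tested probes did. The median difference, Lr11 -/- minus WT, was -0.69 over members, with 11 higher and 24 lower, against 0.04 over tested probes. The fast genes had a median of -0.61 and the slow genes of -2.38, with 7 of 7 lower. Myh7 had the most negative difference, -4.36 (SE 3.41, adjusted p = 0.43), from group means of 0.86 ± 6.31 in WT and -3.50 ± 0.69 in Lr11 -/- (SD, n = 3 arrays). Myl1 had the most positive, 2.09 (SE 2.08, adjusted p = 0.54). The smallest adjusted p was that of Tnnt1, with -3.71 (SE 2.85, adjusted p = 0.43). Without WT scWAT replicate 3 the median over members turned to 2.90, and it also turned positive without Lr11 -/- scWAT replicate 2 (1.24) or replicate 3 (1.36). It fell to -4.34 when Lr11 -/- scWAT replicate 1 was dropped, and to -2.53 and -2.54 for WT scWAT replicates 1 and 2. The first array series alone, with 1 array a group, gave 8.46, and the second series alone gave -5.72. The fast-gene median turned to 3.34 without WT scWAT replicate 3 and to 1.38 and 1.47 without Lr11 -/- scWAT replicates 2 and 3. The slow-gene median turned to 0.95 without WT scWAT replicate 3, and to 3.91 in the first series.

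In BAT, Lr11 -/- minus WT was negative for 35 of 35 members, with a median of -2.82 against 0.04 over tested probes. The medians were -3.25 for fast and -2.45 for slow genes. The differences ran from -4.74 for Ckm, which was not tested, to -0.88 (SE 1.90, adjusted p = 1.0) for Des. Again 0 of the 23 tested members passed an adjusted p of 0.05 by limma and 0 an unadjusted p below 0.05, where 0.0187% and 2.12% of tested probes did. The smallest unadjusted p, 0.35, was that of Myl3, with -2.86 (SE 2.95, adjusted p = 1.0). None of the 35 separated the genotypes, where 12% of tested probes did, and each group held at least 1 bright and 1 dim array. WT BAT replicates 1 and 3 and Lr11 -/- BAT replicate 1 were bright, and the other BAT arrays were dim. The members rose and fell together over these arrays, so their 35 signs are not independent. The Acta1 means were 4.76 ± 4.93 in WT and 2.30 ± 3.99 in Lr11 -/- (SD, n = 3 arrays). The median over members was between -5.65 and -1.46 when 1 array was left out. It was -5.65 without WT BAT replicate 2 and -5.33 without Lr11 -/- BAT replicate 1, and -1.46 and -1.59 without WT BAT replicates 1 and 3, and -1.61 and -1.66 without Lr11 -/- BAT replicates 2 and 3. Within the first series it was -0.99 and within the second -3.94. In the first series the slow genes alone went the other way, with a median of 0.82 (6 of 7 higher).

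The genotype effect in scWAT minus that in BAT had a median of 2.08 over members and was positive for 31 of 35. It was called for 0 members by limma, with 0 at an unadjusted p below 0.05, where 0% and 11% of tested probes passed. The smallest adjusted p was 0.71, for Myl1, with 3.06 (SE 2.94, adjusted p = 0.71). The extremes were Ckm, which was not tested, with 4.83, and Tnnt1, with -1.72 (SE 4.04, adjusted p = 0.90 by limma).

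Between depots, BAT minus scWAT in WT mice had a median of 1.22 over members, with 34 of 35 higher in BAT and Ryr1, the calcium release channel, the exception at -0.04 (SE 3.70, adjusted p = 0.995). Mb had the largest difference, 4.29 (SE 4.02, adjusted p = 0.45), with means of 3.18 ± 4.56 in BAT and -1.11 ± 7.89 in scWAT (SD, n = 3 arrays). By limma 0 members were called and 0 had an unadjusted p below 0.05, where 24.8% and 40.1% of tested probes did. The 2 depots separated for 0 of 35 members and for 40.2% of tested probes. Without WT scWAT replicate 3, 2 of the 23 tested members were called by limma at a smallest adjusted p of 0.026. They were Actn2 (the Z-disc protein alpha-actinin) and Myl1, both higher in BAT, and 5 members had an unadjusted p below 0.05. With all arrays 24.8% and 40.1% of all tested probes passed these thresholds, and the share of probes without WT scWAT replicate 3 is not reported here. Actn2 read -7.36, -6.66 and 6.61 on the WT scWAT arrays and 3.87, -2.28 and -2.94 on the Lr11 -/- scWAT arrays, and 2.61, -2.09 and 2.55 on the WT BAT arrays and 1.86, -2.86 and -2.23 on the Lr11 -/- BAT arrays, and its 2 dimmest arrays, WT scWAT replicates 1 and 2, were not above background. The median over members was 4.86 without that array and 4.12 without WT BAT replicate 2, and turned to -0.13 and -0.10 without WT scWAT replicate 1 or 2. It was 0.10 and 0.30 without WT BAT replicate 1 or 3, 7.09 in the first series and -1.89 in the second. Of the 26 tested other sarcomere genes 2 passed, both higher in BAT, where 24.8% of all tested probes passed in either direction. They were Smyd1, a muscle methyltransferase, with 1.43 (SE 0.41, adjusted p = 0.030 by limma), and Synpo2l, a Z-disc protein, with 1.4 (SE 0.26, adjusted p = 0.0061 by limma).

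In Lr11 -/- mice BAT minus scWAT had a median of -0.75 over members (8 higher, 27 lower), -0.76 for fast and 1.35 for slow genes. By limma 0 members were called and 0 had an unadjusted p below 0.05, where 0.0405% and 9% of tested probes did, and 0 of 35 separated the depots, where 23.2% of probes did. The extremes were Myh7, with 2.32 (SE 3.41, adjusted p = 0.85), and Actn3, the fast-fibre alpha-actinin, which was not tested, with -1.80. Without Lr11 -/- scWAT replicate 1 the median over members turned to 2.66, and it was 0.40 and 0.74 without Lr11 -/- BAT replicate 2 or 3. It was -3.10 without Lr11 -/- BAT replicate 1, and -2.38 and -2.39 without Lr11 -/- scWAT replicate 2 or 3. Within the series it was -2.77 and -0.08. The slow-gene median turned to -0.96 without Lr11 -/- BAT replicate 1, and the fast-gene median to 3.03 without Lr11 -/- scWAT replicate 1 and to 0.40 and 0.76 without Lr11 -/- BAT replicates 2 and 3. Comparisons within 1 depot or genotype share arrays with each other and are not independent.

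**Figure D4:**
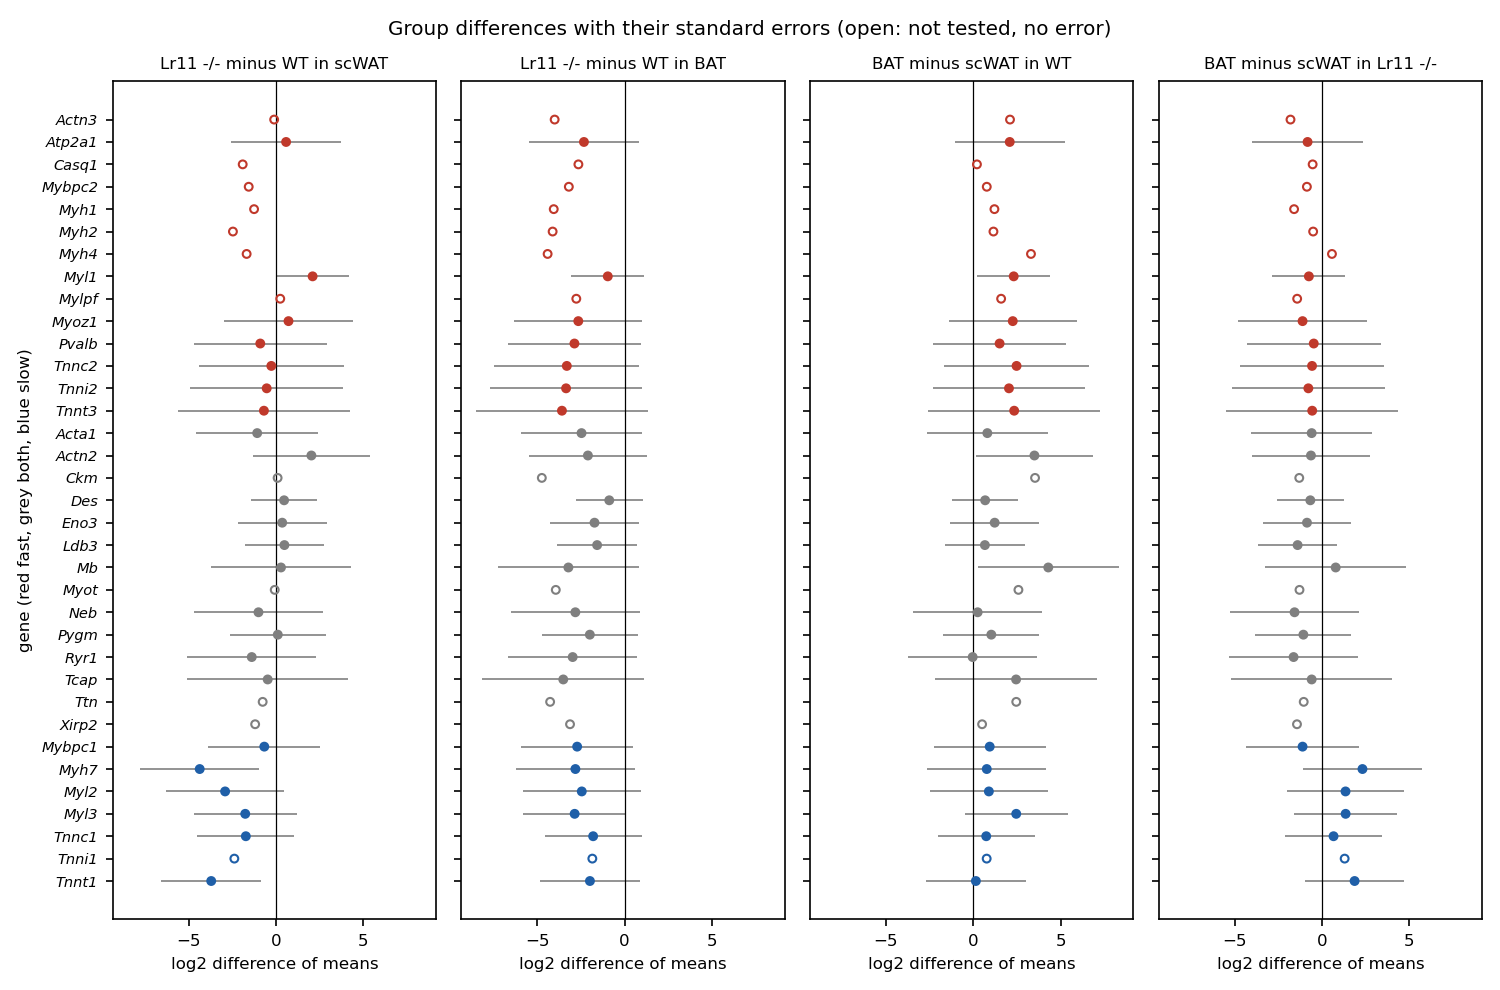
Log2 difference of group means for each of the 35 genes (points) in the 4 comparisons, with bars of 1 standard error from limma for the 23 tested genes and open points without bars for the 12 not tested (3 arrays a group, red fast, grey shared and blue slow fibre). In BAT the genotype difference is below 0 for 35 of 35 genes, which rose and fell together over the arrays. No tested gene passed an adjusted p of 0.05 in any panel.

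The fat, brown fat and epithelial lists had other patterns over the arrays. After centring each gene on its mean, the 7 brown fat genes had medians of -4.06, -6.88 and -2.80 on the WT scWAT arrays and -2.02, 2.5 and 1.88 on the Lr11 -/- scWAT arrays. On the 6 BAT arrays they were 1.35 to 2.73, with the bright and the dim muscle arrays in the same range. Genes used by both muscle and brown fat divided. Ckmt2, mitochondrial creatine kinase, read -5.86, -6.36 and 5.98 on the WT scWAT arrays and 6.03, -6.47 and -6.27 on the Lr11 -/- scWAT arrays, and 4.76, -6.53 and 4.62 on the WT BAT arrays and 3.69, -6.60 and -6.54 on the Lr11 -/- BAT arrays, high on the 5 muscle-bright arrays. Cox7a1, the muscle and brown fat form of a respiratory chain subunit, read 2.21, 0.12 and 6.16 on the WT scWAT arrays and 7.02, 9.28 and 9.30 on the Lr11 -/- scWAT arrays, against 9.09 to 9.45 on the 6 BAT arrays. Its values in Lr11 -/- scWAT replicates 2 and 3, the arrays with Ucp1 at the BAT level, lay within the BAT range, and it was higher in Lr11 -/- scWAT with no overlap (5.70, SE 1.19, adjusted p = 0.038 by limma). The part of those 2 arrays in this call was not tested. The 6 epithelial genes had a centred median of 5.17 on Lr11 -/- scWAT replicate 1 and between -1.12 and 0.40 on the other 11 arrays. The 7 adipocyte genes were between -0.65 and 0.67 except for -3.42 on WT scWAT replicate 2, which was dim for muscle genes. The part of these genes in the muscle values was not tested.

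**Figure D5:**
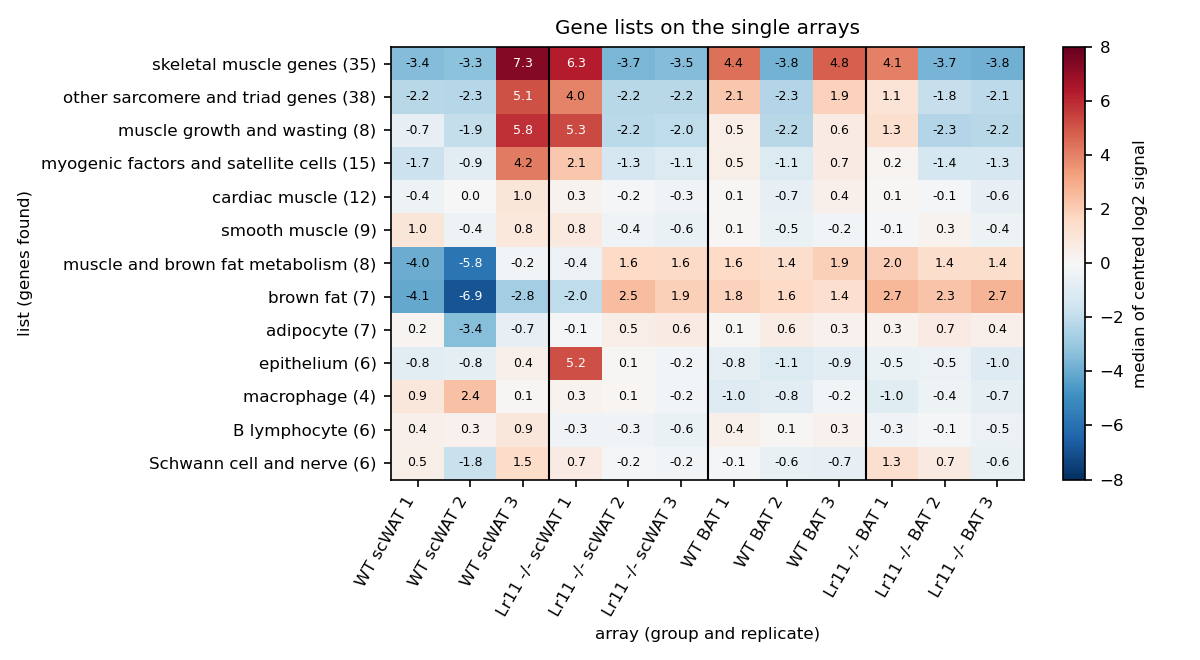
Median over each gene list (rows, with the number of genes found on the array) of log2 signal minus the gene's mean over 12 arrays, on each array (columns). The skeletal muscle genes, the other sarcomere genes and the muscle growth genes are above 0 on the same 5 arrays, while the brown fat list is below 0 on 4 scWAT arrays and the epithelial list is at 5.2 on Lr11 -/- scWAT replicate 1.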

How the data were processed

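Total RNA from powdered frozen tissue was labelled with Cy3 and hybridised to Agilent mouse arrays. Per the labels and file headers, the deposited intensity values (processed signals, background-subtracted by Agilent Feature Extraction 10.10.1.1) are linear. The deposited series table held the same values. The array was designed on mm9 (NCBI37). Control spots and outlier spots were left out, spots of 1 probe averaged, and log2(signal) minus the array's 75th percentile taken. RefSeq accessions gave symbols (GRCm38.p6 table) to 27235 of 55681 probes. The test covered 32121 probes, each with signal well above background on every array of 1 or more groups. One limma 3.58.1 model (R 4.3.3) with a mean per group gave Benjamini-Hochberg adjusted p over these probes, called below 0.05. The number of arrays limits precision. Calls were tested on simulated data with independent noise for each probe. The simulated arrays held no bright arrays shared by the members, so that check does not cover calls of the members. Members and lists were chosen with earlier results of these data known, so lists are given by counts and medians. All 35 members are counted. Values on every array are given for 22 genes named with the list and for members past the threshold, together with the extremes of each contrast, up to 4 genes of each other list and the 15 most correlated genes, of which 1 is not reported here. Actn2, Cacna1s, Cox7a1 and the other-list genes on single arrays beyond these were named after their values were seen. Sequences came from RefSeq; figures were drawn with matplotlib.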

Additional observations from a re-analysis of the deposited data

How the results depend on the processing

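Besides the main setting, 26 alternatives were tried for each of 17 results. They covered scaling, background correction, the filter on dim probes, the probe used for a gene, weights, slide and array series as blocks, the second series alone, and each array left out. The number of members called stayed at 0 in every comparison and alternative except 1. Without WT scWAT replicate 3, 2 members (Actn2 and Myl1) were called in BAT minus scWAT in WT, so leaving out 1 array gave counts of 0 to 2 there and of 0 in the other 4 comparisons. In BAT minus scWAT in WT, 24.8% of all tested probes were called with all arrays. Leaving out 1 array moved the median over members between -4.34 and 2.90 for genotype in scWAT, between -5.65 and -1.46 for genotype in BAT, between -0.13 and 4.86 for depot in WT and between -3.10 and 2.66 for depot in Lr11 -/-. For fast genes the same ranges were -4.78 to 3.34, -6.66 to -1.51, -0.06 to 5.42 and -3.59 to 3.03, and for slow genes -4.70 to 0.95, -4.72 to -0.56, -1.55 to 4.18 and -0.96 to 2.65. With array weights the medians over members were -4.65, -2.61, -1.05 and 0.61 in the same order, and the slide as a block gave -1.51 for slow genes by depot in WT and -0.98 in Lr11 -/-. The cause was not tested. Differences between single arrays under 4 other scalings were added after seeing the data. In Lr11 -/- scWAT replicate 1 minus WT scWAT replicate 3 the slow-gene median was then -7.83 to -6.88 and the fast-gene median 0.10 to 0.19. No paired analysis was possible because the labels carry no replicate numbers. On the 7 dim arrays 19 to 26 of the 35 members were above background, and the values of the other members there were not.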

Other observations

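Among the muscle genes outside the 35, Fbxo32, the ubiquitin ligase atrogin-1, read -1.46, 0.49 and 4.26 on the WT scWAT arrays, 4.68, -2.28 and -2.21 on the Lr11 -/- scWAT arrays, -0.58, -2.29 and 0.36 on the WT BAT arrays and -1.57, -2.49 and -2.39 on the Lr11 -/- BAT arrays. It was brightest on the scWAT arrays that were bright for sarcomere genes, and its values on the 3 muscle-bright BAT arrays lay within its range on WT scWAT replicates 1 and 2 or just below it. Pax7, the satellite cell factor, read -5.51, -5.34 and -3.21 on the WT scWAT arrays, -3.87, -5.58 and -5.21 on the Lr11 -/- scWAT arrays, -4.34, -3.95 and -3.32 on the WT BAT arrays and -4.03, -3.93 and -4.05 on the Lr11 -/- BAT arrays. It was higher on the 2 muscle-bright scWAT arrays than on the other 4 scWAT arrays, and the bright and dim arrays overlapped in BAT. Myh8, the perinatal myosin heavy chain, read -1.44, -2.08 and 9.79 on the WT scWAT arrays, 9.72, -4.23 and -3.43 on the Lr11 -/- scWAT arrays, 8.69, -6.12 and 8.52 on the WT BAT arrays and 7.75, -3.0 and -4.26 on the Lr11 -/- BAT arrays. Its 5 high arrays were those of Myh4, a similar neighbouring gene with which its probe may share signal.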
